A study of Mus musculus with 8 samples.

Results

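The genes described here are 7 nuclear hormone receptors, namely the thyroid hormone receptors Thra and Thrb, the glucocorticoid receptor Nr3c1, the mineralocorticoid receptor Nr3c2, the progesterone receptor Pgr and the oestrogen receptors Esr1 and Esr2. They were found by gene symbol among the 24343 genes of a whole-brain bulk RNA-seq table, where they are represented by 14 of 34535 RefSeq transcripts. The brains came from 3 adult C57BL/6NCrl mice aged 56 to 62 days, a single untreated condition of an inbred strain for which no transgene or allele is named. There were 3 libraries for mouse 1, 3 for mouse 2 and 2 for mouse 3. The meaning of a library number is not given, libraries of the same animal are not independent animals, and the sex of these 3 mice is unlabelled. All 8 libraries carried the Y-linked genes Ddx3y (13.2 to 19.1 FPKM) and Eif2s3y (11.8 to 14.9 FPKM), with Xist, the RNA of the inactive X chromosome, at 0.0246 FPKM or less, which is the pattern of male tissue. The study used both sexes and killed its animals in the early part of their dark period. Levels are FPKM, that is, fragments scaled to transcript length and library size, summed over the transcripts of a gene, averaged within each mouse and then over the 3 mice.

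Nuclear receptors are transcription factors whose activity is set by a small lipid-soluble hormone. Steroid receptors wait in the cell with heat-shock chaperones, bind DNA as pairs after hormone binding and recruit coactivators, whereas thyroid hormone receptors sit on DNA with a retinoid X receptor partner and exchange corepressors for coactivators when hormone arrives. In the brain, glucocorticoid and mineralocorticoid receptors share corticosterone as a ligand, thyroid hormone receptors are known for their part in myelination and neuronal maturation, and oestrogen and progesterone receptors are known for restricted sites such as the hypothalamus.

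A fragment is worth a fixed FPKM in a transcript of a given length, so fragment numbers could be recovered from the deposited values. In single-transcript genes, 90.3% to 92.1% of recovered numbers per library were within 0.05 of a whole fragment, and depth came to between 11505000 and 16875000 fragments per library. Intervals given below for single libraries are 95% exact Poisson intervals on recovered fragments. They cover counting error only. The 5 markers each of neurons, astrocytes, oligodendrocytes, microglia, endothelium and choroid plexus had levels of at least 1 FPKM, as brain tissue should, whereas none of 5 pituitary hormone markers did, with a summed level between 0.443 and 1.99 FPKM. Mouse 3 stood apart from the other mice. Its libraries had higher summed astrocyte markers (523 and 559 FPKM, against 346 to 368 in mice 1 and 2) and oligodendrocyte markers (3881 and 4801 against 1990 to 2207), with 5 of 5 and 4 of 5 genes called higher by limma in the contrast of mouse 3 with mice 1 and 2. The sums also lay outside those of the other mice for microglia (61.3 and 61.5 against 47.0 to 54.8 FPKM, 2 of 5 genes called higher), endothelium (90.6 and 97.0 against 43.8 to 65.1, 2 of 5), blood (801 and 897 against 530 to 659, 1 of 5) and hypothalamic peptides (62.1 and 56.9 against 28.4 to 48.7, 1 of 6 tested). Over all genes tested, 20.4% were called higher and 17.5% lower in that contrast. Of the genes called, Aif1, Ly6c1 and Hbb-bt have transcripts of 875, 849 and 630 bases, and Cx3cr1 of 3753. The 2 most abundant microglia markers, Csf1r and P2ry12, did not pass (differences -0.02 and 0.04). Summed FPKM of all genes was also higher in mouse 3 (384885 and 409889, against 295541 to 345572), and its part in these sums was not tested. For neurons the sums were 1449 and 1592 against 1669 to 1799 FPKM, with 2 of 5 genes called lower, while the most abundant, Snap25, did not pass (difference -0.12, adjusted p = 0.273 by limma).

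The receptors spanned more than 3 orders of magnitude in level, with Thra first and Esr2 last. Thra was at 134 ± 12.7 FPKM (SD, n = 3 mice), 7.34 times the level of Nr3c1, which followed at 18.3 ± 0.382 FPKM. Nr3c2 was at 9.21 ± 0.638 FPKM, Thrb at 7.06 ± 1.29 FPKM and Pgr at 3.75 ± 0.373 FPKM. The oestrogen receptors were lowest, with Esr1 at 0.602 ± 0.149 FPKM and Esr2 at 0.0710 ± 0.0286 FPKM. Of 24343 genes, Thra ranked 403, Nr3c1 3637, Nr3c2 6306, Thrb 7429, Pgr 9849, Esr1 13890 and Esr2 16785.

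**Figure D1:**
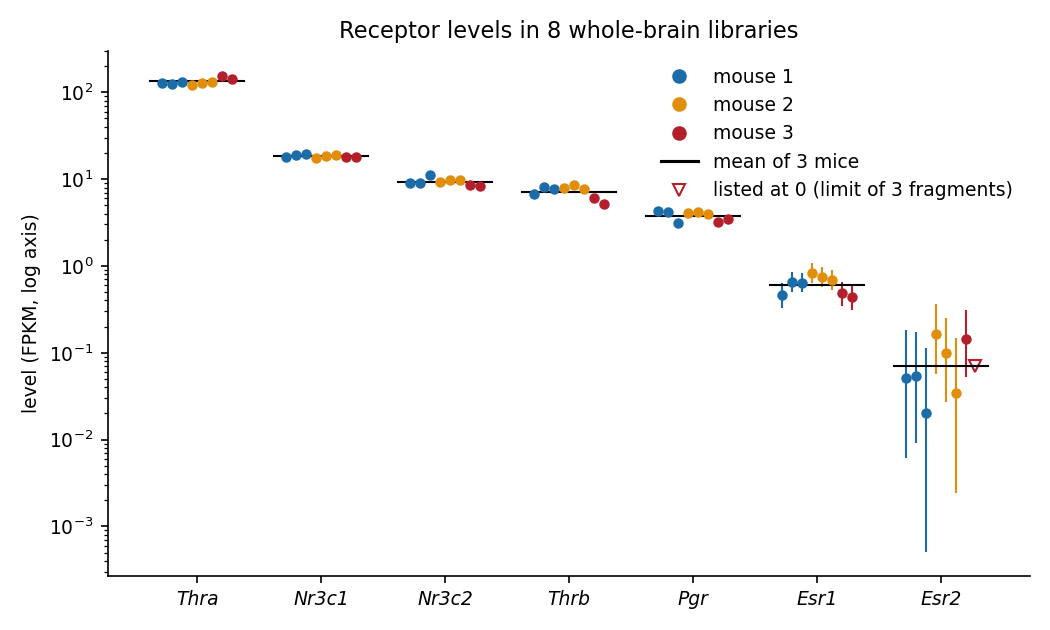
Level of each receptor in the 8 libraries (FPKM, log axis), coloured by mouse, with 95% Poisson intervals for counting error and a black line at the mean of 3 mice. The points of Thra lie between 121 and 155 FPKM, those of Esr1 between 0.438 and 0.830 FPKM, and the open triangle is the limit of 3 fragments for the library in which Esr2 is listed at 0.

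Neighbours in this order were separated in 5 of 6 cases, in that every library of the higher gene lay above every library of the lower gene. The exception was Nr3c2 and Thrb, whose ranges (8.39 to 11.1 FPKM and 5.21 to 8.47 FPKM) overlapped slightly, although Nr3c2 was above Thrb in each of the 8 libraries. The levels are a description of these libraries, with no test. The order was the same with TPM, with the highest transcript of each gene, with the length trend removed and without any single library.

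Thra, which encodes the thyroid hormone receptor alpha, was listed at 129, 123 and 132 FPKM in libraries 1 to 3 of mouse 1, at 121, 127 and 131 FPKM in those of mouse 2, and at 155 and 143 FPKM in those of mouse 3. Both libraries of mouse 3 lay above all 6 others. Between 2772 and 4477 fragments per library stood behind these values. The table has a single Thra transcript of 2246 bases, at chr11:98741873-98765111 on mm10, which is the alpha1 form with the hormone-binding end. The alpha2 form, which does not bind the hormone, is not among the transcripts of the table. In GENCODE M21, 1540 of the 2246 bases of the alpha1 transcript (68.6%) also belong to alpha2, so the value listed for Thra is that of the locus as far as these bases go, and the forms cannot be told apart from it.

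The alpha2 transcript runs to position 98769006 and overlaps the antisense gene Nr1d1, the clock repressor REV-ERB alpha, by 263 exonic bases, whereas the alpha1 transcript ends 2820 bases before Nr1d1. Nr1d1 was the second most abundant nuclear receptor gene of the table at 37.1 ± 5.25 FPKM. It was lower in mouse 3 (31.2 FPKM, against 41.3 and 38.7 in mice 1 and 2), the opposite direction to Thra. Whether the counting used strand was not given in the sources used here.

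Thrb, the thyroid hormone receptor beta, was listed at 6.69, 8.16 and 7.78 FPKM in mouse 1, at 7.94, 8.47 and 7.72 FPKM in mouse 2, and at 6.01 and 5.21 FPKM in mouse 3. The libraries of mouse 3 were the lowest, although the counting interval of the first (5.49 to 6.57 FPKM) overlapped that of the lowest library of mouse 1 (6.13 to 7.29 FPKM). The gene spans chr14:17660960-18038088.

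On the FPKM scale Nr3c1, the glucocorticoid receptor, was the least variable of the 7. Its coefficient of variation between mice was 2.09%, against a median of 12.3% over all genes at 1 FPKM or more. In TPM it was lower in mouse 3 (difference -0.33, adjusted p = 0.0113 by limma), but the median of all genes tested was also lower, at -0.26. Relative to that median Nr3c1 was at -0.074. With the length trend removed its difference was 0.15 (adjusted p = 0.126 by limma). Nr3c1 was listed at 17.8, 18.9 and 19.5 FPKM in mouse 1, at 17.3, 18.4 and 18.8 FPKM in mouse 2, and at 18.0 and 17.9 FPKM in mouse 3, so that the ranges of the mice overlapped. Its transcript of 6329 bases lies at chr18:39410545-39487245.

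Nr3c2, the mineralocorticoid receptor, was listed at 8.92, 8.94 and 11.1 FPKM in mouse 1, at 9.20, 9.71 and 9.65 FPKM in mouse 2, and at 8.57 and 8.39 FPKM in mouse 3. Library 3 of mouse 1 (10.3 to 11.9 FPKM) had an interval above those of libraries 1 (8.12 to 9.77 FPKM) and 2 (8.18 to 9.75 FPKM) of the same animal. The gene lies at chr8:76902508-77243639.

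Pgr, the progesterone receptor, was listed at 4.27, 4.23 and 3.11 FPKM in mouse 1, at 4.06, 4.18 and 3.92 FPKM in mouse 2, and at 3.21 and 3.46 FPKM in mouse 3. The lowest library of all was again library 3 of mouse 1, whose interval (2.80 to 3.46 FPKM) did not reach those of the other libraries of that animal (3.85 to 4.72 and 3.83 to 4.65 FPKM). For both Nr3c2 and Pgr, therefore, libraries of 1 brain differed by more than counting error and over a wider range than the means of the mice did. Pgr spans chr9:8899833-8968611.

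Esr1, the oestrogen receptor alpha, was listed at 0.461, 0.660 and 0.643 FPKM in mouse 1, at 0.830, 0.750 and 0.693 FPKM in mouse 2, and at 0.484 and 0.438 FPKM in mouse 3. These values rest on 38 to 65 fragments per library and 419 in all. The intervals of mouse 3 (0.347 to 0.657 and 0.310 to 0.601 FPKM) overlapped that of the first library of mouse 1 (0.326 to 0.633 FPKM).

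Esr2, the oestrogen receptor beta, rested on 22.5 fragments over the 8 libraries. It was listed at 0.0507, 0.0545 and 0.0202 FPKM in mouse 1, at 0.164, 0.0991 and 0.0342 FPKM in mouse 2, and at 0.144 and 0 FPKM in mouse 3. Counting intervals of the libraries overlapped widely, from 0.0529 to 0.314 FPKM in the first library of mouse 3 and up to 0.0865 FPKM in the second, where 3 fragments would be worth 0.0704 FPKM. No difference between mice was detectable for Esr2 at this depth. In bulk tissue, fewer cells with a receptor and less RNA per cell cannot be told apart.

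Among 49 nuclear receptor genes, all found in the table, 34 averaged 1 FPKM or more. Thra alone made up 29.2% to 35.2% of the summed FPKM of the 49 genes in a library, and the 7 receptors together 38.8% to 43.5%. Of the 7 receptors' summed FPKM, Thra was 75.1% to 81.0%. Nr3c1 took place 5, Nr3c2 place 11, Thrb place 16, Pgr place 23, Esr1 place 36 and Esr2 place 39 among the 49. Hnf4a and Nr2e3, receptors of the liver and the retina, were listed at 0 in all libraries.

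**Figure D2:**
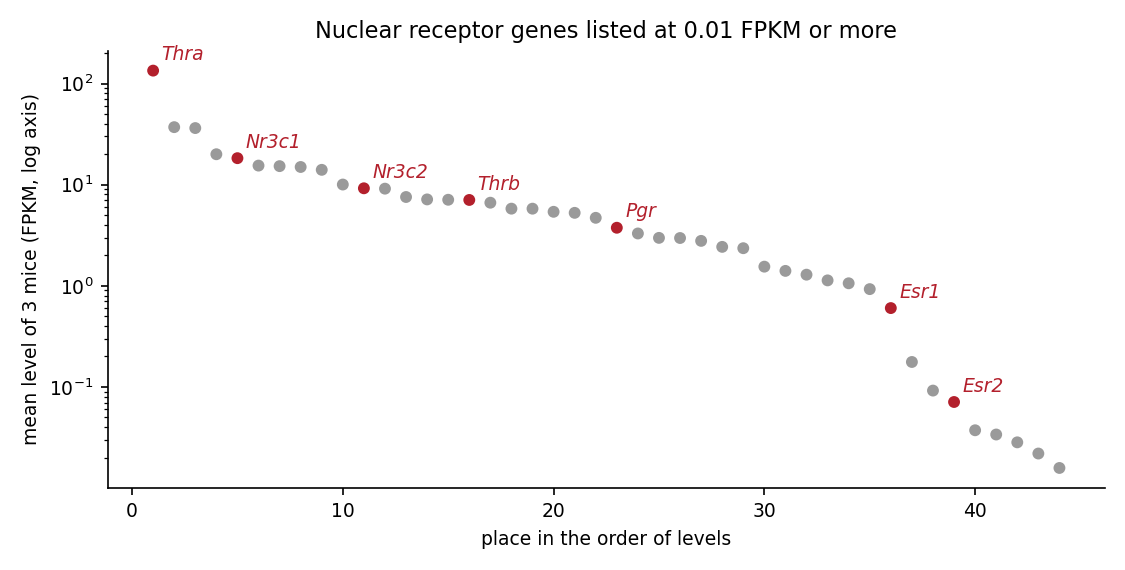
Mean level over 3 mice (FPKM, log axis) against place in the order of levels, for the 44 of 49 nuclear receptor genes at 0.01 FPKM or more. Red points are the 7 receptors described here, of which Thra is first and Esr2 is at place 39.

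Of the 7 receptors, Thra, Nr3c1, Nr3c2 and Pgr have a single transcript in the table, Thrb has 2, Esr2 has 3 and Esr1 has 5. The authors' estimation divides fragments between transcripts that share exons, so these values are less certain than the sum over a gene. The transcripts of Thrb and Esr1 fall on start sites far apart, and the promoter at each is shown because the estimated use of the start sites differed between libraries. Thrb is transcribed from an upstream start, which gives the broadly expressed beta1 form, and from a start inside the gene, which gives the beta2 form known from the pituitary, the hypothalamus and sensory cells. The sequences are those of RefSeq on GRCm38.p6, 250 bases before to 50 bases after each start on the plus strand. In the Thrb promoters, capitals mark a TATA box (TATAAA), a GC box (GGGCGG) and the hormone response half-sites AGGTCA and AGAACA, on either strand, and in the Esr1 promoters they mark CG dinucleotides.
Thrb upstream start, chr14:17660710-17661009: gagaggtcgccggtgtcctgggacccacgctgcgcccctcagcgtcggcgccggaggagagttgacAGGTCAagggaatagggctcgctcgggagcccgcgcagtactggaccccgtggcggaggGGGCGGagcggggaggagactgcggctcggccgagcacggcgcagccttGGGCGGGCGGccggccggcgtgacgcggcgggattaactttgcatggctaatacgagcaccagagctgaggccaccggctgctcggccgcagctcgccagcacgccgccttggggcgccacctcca
Thrb start inside the gene, chr14:17981394-17981693: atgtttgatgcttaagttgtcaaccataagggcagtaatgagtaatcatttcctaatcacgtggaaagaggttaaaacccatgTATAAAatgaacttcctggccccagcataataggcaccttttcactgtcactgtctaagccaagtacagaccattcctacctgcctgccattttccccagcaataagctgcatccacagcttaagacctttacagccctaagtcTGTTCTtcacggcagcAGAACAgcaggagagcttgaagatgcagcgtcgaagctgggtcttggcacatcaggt
Esr1 upstream start, chr10:4611739-4612038: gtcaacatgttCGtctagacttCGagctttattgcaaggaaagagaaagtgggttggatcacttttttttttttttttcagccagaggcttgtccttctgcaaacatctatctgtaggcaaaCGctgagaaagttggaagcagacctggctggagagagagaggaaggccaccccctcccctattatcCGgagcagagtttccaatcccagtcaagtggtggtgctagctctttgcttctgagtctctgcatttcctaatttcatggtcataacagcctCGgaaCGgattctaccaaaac
Esr1 downstream start, chr10:4709908-4710207: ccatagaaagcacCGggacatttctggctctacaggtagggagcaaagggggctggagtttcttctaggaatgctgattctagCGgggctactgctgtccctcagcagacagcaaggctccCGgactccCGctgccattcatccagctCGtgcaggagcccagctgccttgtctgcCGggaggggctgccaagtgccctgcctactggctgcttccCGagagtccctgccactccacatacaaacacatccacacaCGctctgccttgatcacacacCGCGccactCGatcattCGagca

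The promoters of the Thrb starts were unlike in composition. The upstream window had 72.7% G and C, 37 CG dinucleotides and 3 matches to the GC box, of which the last 2 overlap, and 94.4% of 32851 promoters in the RefSeq table had fewer CG dinucleotides. The inner window had 46.0% G and C, 4 CG dinucleotides and 2 AGAACA half-sites, with no GC box. Its TATAAA hexamer begins at -167 relative to the start, and whether it works as a TATA box was not tested. Anywhere in the window and on either strand, TATAAA was present in 13.6% of all promoters, the GC box hexamer in 35.7%, AGGTCA in 16.3% and AGAACA in 19.0%. The upstream window held 1 AGGTCA half-site, the hexamer bound by thyroid hormone and oestrogen receptors. In the Esr1 windows, none of these hexamers was found, and G and C made up 46.3% at the upstream and 59.3% at the downstream start, with 6 and 12 CG dinucleotides. Full elements, searched as AGGTCA repeated 4 bases apart, as inverted AGGTCA 3 bases apart and as inverted AGAACA 3 bases apart, were in none of these windows and in at most 0.0213% of all promoters, so such exact matches are rare in windows of this length.

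Almost all Thrb signal was assigned to the upstream start, between 97.6% and 100% of the gene's FPKM, or 435 to 757 fragments per library. The beta2 transcript was given 7.87 to 12.6 fragments in 4 libraries, namely library 2 of mouse 1, libraries 1 and 2 of mouse 2 and library 1 of mouse 3, and under 1 fragment in the other 4. Each of the 3 mice had at least 1 library of both kinds.

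For Esr1, the signal changed start between libraries. In 7 of 8 libraries, at least 98.9% of the FPKM was assigned to the downstream start, nearly all to 1 transcript of 6218 bases with between 37.6 and 64.6 fragments. In library 1 of mouse 1 the upstream start received 98.7%, or 37.5 fragments, all but a trace on a transcript of 6358 bases that had less than 1 fragment elsewhere. Both transcripts end at chr10:5005633, and the summed Esr1 level of that library (0.461 FPKM) was within the range of the others. The part of the division of fragments between transcripts in this difference was not tested.

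For Esr2, the estimates favoured the shortest transcript, a non-coding RefSeq record of 3169 bases. It carried 20.0 of the 22.5 fragments, and a coding transcript of 3308 bases had 2.50 fragments, all in library 2 of mouse 1. With 1 to 6 fragments in the libraries that had any, the split between these transcripts rests on very few molecules.

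**Figure D3:**
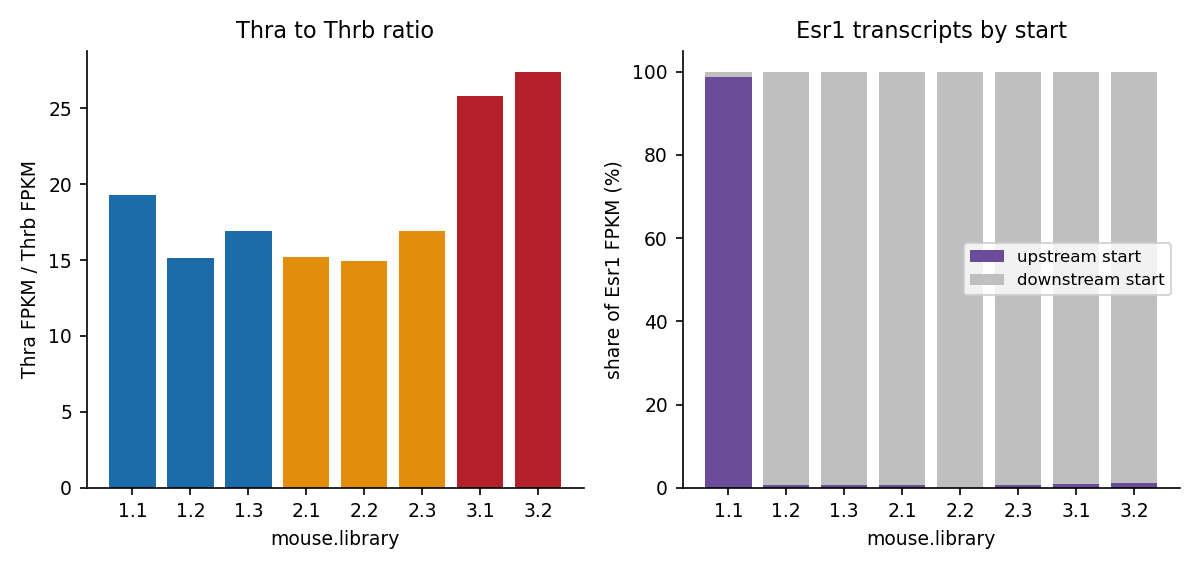
Left, ratio of Thra to Thrb FPKM in each library (mouse and library number), highest in mouse 3 at 25.8 and 27.4. Right, share of Esr1 FPKM (%) assigned to transcripts of the upstream and downstream starts, where library 1 of mouse 1 has 98.7% on the upstream start.

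The 3 mice were then compared with an F-test moderated by limma on log2(FPKM + 1), fitted to genes averaging 1 FPKM or more, which asks whether these individuals differ beyond the spread between libraries of a mouse. The p-values concern these animals only, since all belong to 1 condition. Of the 13001 genes tested, 25.5% passed at an adjusted p of 0.05. Of the 7 receptors, 5 reached the minimum level and 1 of these passed, Thrb, with a range of mouse means of 0.45 on the log2 scale (adjusted p = 0.0304 by limma). Against a background of 25.5%, 1 of 5 is no more than for genes at large. Thra (adjusted p = 0.107), Pgr (0.337), Nr3c2 (0.413) and Nr3c1 (0.834) did not pass. With a minimum of 0.1 FPKM, Esr1 was also tested and did not pass (adjusted p = 0.133 by limma, with 18.0% of genes passing). Of single transcripts, 7.17% passed, and 0 of the 5 tested transcripts of the receptors did by limma, with 1 at an unadjusted p under 0.05 (beta1 transcript of Thrb, adjusted p = 0.0742).

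In the contrast of mouse 3 with the mean of mice 1 and 2, Thrb was lower by 0.41 ± 0.092 on the log2 scale (difference of -0.41 ± SE, adjusted p = 0.0107 by limma) and Thra was higher by 0.23 ± 0.074 (adjusted p = 0.0405). The call of Thra was marginal, with an adjusted p of 0.0506 with a pseudocount or a minimum of 0.1 FPKM, of 0.0580 with the highest transcript, and of 0.0410 to 0.137 when a library was left out, where it held in 1 of 8 fits. For all genes, 17.5% were called lower and 20.4% higher in mouse 3. Nr3c1 differed by -0.03 ± 0.073, Nr3c2 by -0.16 ± 0.092 and Pgr by -0.19 ± 0.10, none of which passed. The median difference of the 5 receptors was -0.16, against 0.02 over all genes tested.

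Differences of mouse 3 went with transcript length. Genes were put into 5 classes of like size by length. In the class of the shortest transcripts the median difference was 0.42, with 46.9% of genes called higher, and in that of the longest it was -0.20, with 39.9% called lower. Thra fell in the second class (median 0.12), Nr3c2 in the fourth (-0.083), and Thrb, Nr3c1 and Pgr in that of the longest. With the length trend of each library removed, the difference was -0.26 for Thrb (adjusted p = 0.0335 by limma) and 0.15 for Thra (adjusted p = 0.130), and the F-test of Thrb was no longer passed (adjusted p = 0.0768). In TPM, which scales each library to the same total, the median of all genes shifted to -0.26. Relative to that median, Thra was at 0.18 and Thrb at -0.48, against 0.21 and -0.43 on the FPKM scale. Nr3c1 was at -0.074, Nr3c2 at -0.20 and Pgr at -0.24 relative to it, against -0.055, -0.18 and -0.21. Unadjusted for the shift, Thra had a negative difference in TPM (-0.071, adjusted p = 0.544), whereas Thrb, Nr3c1, Nr3c2 and Pgr all passed as lower. In TPM, 5493 of the 13001 genes passed the F-test. Of the genes called in the contrast in TPM, 84.9% were lower in mouse 3. Without library 2 of mouse 3, Thrb had an adjusted p of 0.203 in the F-test and of 0.101 in the contrast, and 126 genes passed the F-test. The shifted cell type markers of mouse 3 go with these differences, and their part in them was not tested.

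**Figure D4:**
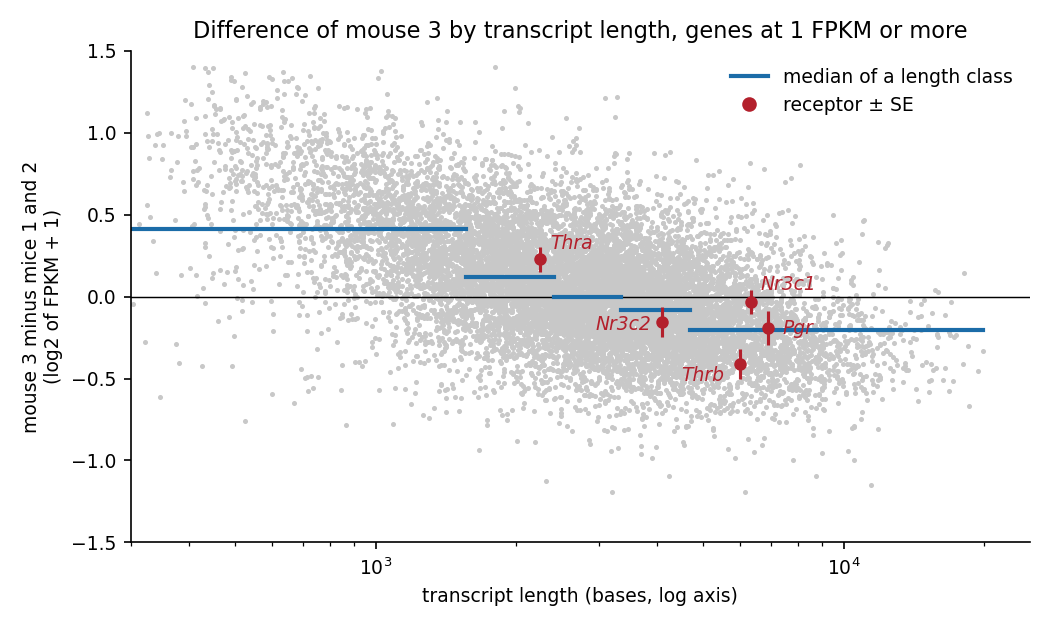
Difference of mouse 3 from mice 1 and 2 (log2 of FPKM + 1) against transcript length (log axis) for genes at 1 FPKM or more, with 85 genes beyond the axes not drawn. Blue lines are medians of 5 classes of genes by length and red points the receptors with their SE. Thra lies at 0.23 and Thrb at -0.41.

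A ratio of FPKM within a library does not depend on how the library was scaled. Thra exceeded Thrb 19.3-, 15.1- and 16.9-fold in mouse 1, 15.2-, 15.0- and 16.9-fold in mouse 2, and 25.8- and 27.4-fold in mouse 3. Mouse 3 did not overlap the others. The log2 ratio differed between mice (means of 4.07, 3.95 and 4.71, exact permutation test of the F statistic over 280 groupings of the libraries, p = 0.0143, adjusted p = 0.0429 over 3 ratios, 0.1 FPKM added to both genes). The adjusted p rose to between 0.0571 and 0.200 when any single library was left out and to 0.113 with the length trend removed.

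The Nr3c1 to Nr3c2 ratio was steadier, at 1.99, 2.12 and 1.76 in mouse 1, 1.88, 1.90 and 1.95 in mouse 2, and 2.10 and 2.14 in mouse 3. Glucocorticoid receptor transcripts were thus the more abundant in 8 of 8 libraries. A difference between the mice was not shown (exact permutation p = 0.261, adjusted p = 0.391). Esr1 exceeded Esr2 in 8 of 8 libraries, and in the 7 libraries with any Esr2 the ratio ran from 3.36 to 31.9, a spread set by the few Esr2 fragments (exact permutation p = 0.671, adjusted p = 0.671).

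Lists of genes that work with these receptors were read in the same fits. Some genes are in several lists, so the counts of the lists are not separate. The retinoid X receptors are also counted as nuclear receptors, and Pgr is also counted as an oestrogen target. Over all genes tested, 25.5% passed the F-test, and 17.5% were called lower and 20.4% higher in mouse 3. The retinoid X receptors, with which thyroid hormone receptors pair, were all above 1 FPKM, with Rxrb at 14.0 ± 1.25 FPKM and Rxra at 5.39 ± 0.114 FPKM, and 0 of 3 passed either test by limma, also 0 at an unadjusted p under 0.05, with a median difference of 0.04. Of 8 coactivators, 5 passed the F-test and the same number were called lower in mouse 3, none higher, with a median difference of -0.35 against 0.02 over all genes. The highest were the p160 coactivators Ncoa1 (16.3 ± 2.69 FPKM, difference -0.41) and Ncoa2 (11.5 ± 2.13 FPKM, difference -0.46), and Ncoa6 had the widest range of mouse means (difference -0.56 ± 0.11). The coactivator transcripts named here are 6872 to 8267 bases long, and with the length trend removed 1 of 8 passed the F-test and 4 of 8 the contrast.

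Of 8 corepressors, 1 passed the F-test and 2 were called lower in mouse 3, with a median difference of -0.23. The shares over all genes were 25.5% and 17.5%. Hdac3, the deacetylase of the corepressor complex, was at 29.4 ± 1.40 FPKM and Ncor1, its scaffold, at 27.6 ± 1.25 FPKM, and neither passed. Gps2, another subunit of that complex, was lower (9.58, 8.13 and 5.86 FPKM in mice 1 to 3, difference -0.52 ± 0.096, adjusted p = 0.00543 by limma), and its transcript has 1220 bases. Of 8 receptor chaperones, 1 passed, Hsp90aa1, the inducible form of HSP90 (464, 443 and 354 FPKM, difference -0.36 ± 0.068), and the median difference was -0.075. Hspa8 (748 ± 16.8 FPKM) and Hsp90ab1 (459 ± 25.7 FPKM), which help hold steroid receptors ready for hormone, were the highest and did not pass.

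Genes that set hormone supply moved in both directions. Of 7 tested genes of steroid metabolism, 2 passed the F-test and 3 were called higher in mouse 3, none lower, with a median difference of 0.12. Over all genes, 25.5% passed the F-test, 20.4% were called higher and 17.5% lower. Hsd11b1, which regenerates active glucocorticoid, was at 18.0, 18.6 and 37.0 FPKM in mice 1 to 3 (difference 0.97 ± 0.10, adjusted p = 0.00149 by limma), and Hsd17b10, a mitochondrial dehydrogenase, at 22.5, 19.6 and 39.6 FPKM (difference 0.88 ± 0.13). Their transcripts have 1347 and 911 bases, in the class of the shortest, where the median difference was 0.42 and 46.9% of genes were called higher. Hsd17b12 was the highest of the list at 47.8 ± 6.78 FPKM. Of 7 tested genes of thyroid hormone supply, 3 passed the F-test, with 2 called lower and 1 higher in mouse 3 and a median difference of 0.072. Dio2, which activates thyroid hormone and in the brain is known from astrocytes, was at 8.97, 10.1 and 16.4 FPKM (difference 0.72 ± 0.086, adjusted p = 0.00190 by limma), and its transcript of 5815 bases is long. Ttr, the carrier protein of the choroid plexus (472 ± 52.3 FPKM), and Crym, a cytosolic binder of the hormone (36.6 ± 7.88 FPKM), were the highest and did not pass.

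Known target genes of the receptors did not move in 1 direction. For the counts below, the shares over all genes were 25.5% past the F-test, 17.5% lower and 20.4% higher. Of 10 glucocorticoid targets, 5 passed the F-test, with 2 called lower and 3 higher in mouse 3 and a median difference of 0.04. The metallothioneins Mt1 (302, 267 and 490 FPKM, difference 0.80 ± 0.20) and Mt2 (183, 161 and 297 FPKM, difference 0.79 ± 0.16) were the highest and had the widest range, and their transcripts are short, at 542 and 556 bases. Of 9 tested thyroid hormone targets, 4 passed, with 2 called lower and 3 higher and a median difference of 0.04. The glucocorticoid and thyroid hormone target lists share a gene that was called lower in mouse 3 and is counted in both. Mbp, myelin basic protein, rose to 3166 FPKM in mouse 3 from 1288 and 1322 FPKM (difference 1.27 ± 0.091), and Thrsp, a lipogenic regulator, to 22.5 FPKM from 12.8 and 12.5 FPKM (difference 0.76 ± 0.14), whereas Nrgn, a postsynaptic calmodulin binder, was at 514, 451 and 396 FPKM (difference -0.28 ± 0.079). The transcript of Thrsp is short, at 1038 bases, and that of Mbp has 1985. Mbp also belongs to the oligodendrocyte markers that were higher in mouse 3. Of 6 tested oestrogen targets, 0 passed either test by limma, with 1 at an unadjusted p under 0.05 in the contrast and a median difference of -0.02. The highest were Oxt, oxytocin (8.95 ± 1.96 FPKM), and Tac2, neurokinin B (7.57 ± 0.460 FPKM). Of the 34 nuclear receptor genes tested, 11 (32.4%, against 25.5% of all genes) passed the F-test. In mouse 3, 10 were called lower and 5 higher, with a median difference of -0.18. Beside Thrb, those past the F-test included Nr2f6 (7.15 ± 1.48 FPKM), an orphan receptor, and Esrra, the oestrogen-related receptor alpha (15.0 ± 2.89 FPKM), which had the widest ranges of mouse means. Both had positive differences in mouse 3, opposite to the median of the list. Esrra was called higher (0.42, adjusted p = 0.0187 by limma), and Nr2f6 was not called (0.32, adjusted p = 0.0888 by limma). Without library 2 of mouse 3, 0.969% of all genes passed the F-test and 11.5% the contrast, in either direction. Of the lists, 1 thyroid hormone target passed that F-test, and 3 nuclear receptors, 3 coactivators, 2 genes of steroid metabolism, 1 chaperone, 1 gene of thyroid hormone supply and 1 thyroid hormone target passed that contrast. With the length trend removed, 20.0% of all genes passed the F-test and 31.7% the contrast. For nuclear receptors these counts were 11 and 13 of 34, for corepressors 1 and 2 of 8, for chaperones 1 and 1 of 8, and for steroid metabolism 2 and 2 of 7. For thyroid hormone supply they were 3 and 3 of 7, for glucocorticoid targets 2 and 3 of 10, for thyroid hormone targets 3 and 4 of 9, and for oestrogen targets 1 and 1 of 6.

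The genes whose levels followed each receptor most closely over the 8 libraries, by Pearson's r of log2(FPKM + 1) among genes at 1 FPKM or more, are given as a description, since the libraries share 3 animals and the length trend. For Thra they were Git1, Ppard and Kcnab2 (r = 0.989, 0.988 and 0.988), and for Thrb they were Stat2, Mllt10 and Luc7l (r = 0.989, 0.984 and 0.983). For Nr3c1 they were Pcolce, 6430706D22Rik and Rell1 (r = 0.981, 0.973 and 0.969), for Nr3c2 Zfp280b, Pola1 and Gm11149 (r = 0.958, 0.958 and 0.944), and for Pgr Oraov1, Ankrd34c and Apex1 (r = 0.937, 0.929 and 0.923). Among the receptors themselves, Nr3c1 and Nr3c2 had an r of 0.68, Nr3c2 and Thrb 0.64, Thra and Thrb -0.79 and Thra and Pgr -0.73 over the same 8 libraries.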

How the data were processed

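Bulk RNA-seq of 3 whole brains was used, from polyadenylated RNA made into libraries with the Kapa mRNA HyperPrep kit after samples with an RNA integrity score above 8 were kept. The authors deposited FPKM values per RefSeq transcript and library. TopHat, Cufflinks and mm10 are named in the submitters' processing notes, with no versions. The authors also deposited coverage, a signal per base, used only as a measure of depth (1.31 to 2.02 gigabases on transcripts per library). Of the table's transcript values, 8 carry a failed status.

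Transcript FPKM were summed per gene. Differences between mice were tested with limma 3.58.1 in R 4.3.3 on log2(FPKM + 1) over 13001 genes averaging 1 FPKM or more, and p-values were adjusted after Benjamini and Hochberg (threshold 0.05). Ratios were tested by exact permutation (Python 3.11.15). Fold changes on this scale understate those of low genes. Fragments were recovered by fitting the FPKM of 1 fragment against length. The limma fit was tested on simulated data with independent noise in each library and no length trend. That test cannot show how the fit behaves with the length trend of these libraries. The check on the fragment recovery was the nearness of its numbers to whole fragments. The receptors and the gene lists were chosen with earlier results of these data known. Named genes were the receptors, the 2 highest genes of each list, up to 2 of each list with the widest range past the F-test, and the 3 genes most alike per receptor. Genes that this rule takes and the text leaves out are not reported here. Promoters came from RefSeq, in which 5 of 7 receptors matched. Alternatives were another pseudocount, other minima, TPM, the highest transcript, removal of a length trend, a replicate block and leaving out each library.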

Additional observations from a re-analysis of the deposited data

Results flagged for a closer look

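Library 1 of mouse 1 stood far from the other libraries in the start assigned to Esr1. The share of Esr1 FPKM on transcripts of the upstream start was 98.7% there and at most 1.06% in the other 7 libraries, so that the gap made up 0.990 of the whole range, beyond Dixon's 95% critical value for 8 libraries. The level of Esr1 itself did not stand apart in that library. The same check on the levels of the 7 receptors, 3 ratios and the share of the beta2 transcript of Thrb found no other library beyond that value, the nearest being Nr3c2 in library 3 of mouse 1 (11.1 FPKM, gap of 0.504). Chance alone passes it in about 1 of 20 groups, and libraries of a mouse are not independent.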

How the results depend on the processing

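The order of the receptors' levels was the same under all 12 alternatives run, of which TPM cannot change it within a library. The number of genes that differed between the mice (3310) was 5493 with TPM, 2066 with the highest transcript and 126 to 3860 when a library was left out, lowest without library 2 of mouse 3. That of receptors (1, Thrb) was 4 with TPM, 0 with the length trend removed and 0 to 1 when a library was left out, being lost without library 2 or 3 of mouse 1, library 2 of mouse 2 or library 2 of mouse 3. The number that differed in mouse 3 (2, Thra and Thrb) was 4 with TPM, 1 with a pseudocount of 0.1 FPKM, a minimum of 0.1 FPKM, the highest transcript or the length trend removed, and 0 to 2 when a library was left out. In that contrast Thrb passed in 7 of 8 such fits and Thra in 1 of 8. Of genes called in the contrast, 46.1% were lower in mouse 3, and 84.9% in TPM. Differences reversed for Thra in TPM (-0.071) and for Nr3c1 with the length trend removed (0.15), neither past the threshold. The number of transcripts (1179) was 3418 in TPM and 1 to 1770 when a library was left out. The log2 ratio of Thra to Thrb (4.24) lost its call with the length trend removed (4.22) and without any library (4.21 to 4.27). The other ratios kept their direction and stayed past no threshold in 10 of 10 alternatives each. Causes were not tested.

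The library numbers are shared by the mice but are not stated to pair them. Deviations of same-numbered libraries from their mouse's mean correlated between 0.003 and 0.107 over genes in 7 pairs, and those of differently numbered libraries between -0.13 and 0.065 in 14 pairs. These pairs are not separate values. Mouse 3 has 2 libraries, whose deviations from its mean mirror each other, so their correlations with any other library differ only in sign. With the number as a replicate block, 2995 genes and 0 of the receptors differed between the mice (Thrb, adjusted p = 0.0647 by limma), and 1 receptor, Thrb, differed in mouse 3.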
